A study of Homo sapiens with 6 samples.

Results

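The cyclin-dependent kinases (CDKs) of the cell cycle were examined in RNA-seq of OE-19 cells, a cell line from an adenocarcinoma of the esophagogastric junction (AEG). The genes were chosen by symbol, as *CDK1*, *CDK2*, *CDK4*, *CDK6* and *CDK7*, when earlier results of these data were already known. All 5 were found in the deposited counts, each as a single entry among 60480 gene identifiers, and all 5 passed the filter on low counts that left 19778 genes for testing. The 3 control libraries come from OE-19 cells with a control knockdown (shControl, with counts named Puro), and the 3 IGF2BP3 KD libraries come from OE-19 cells with IGF2BP3 knocked down by an shRNA (shIGF2BP3). All 6 were made from poly(A) RNA of cells grown in RPMI1640 medium with fetal bovine serum. The sources do not say whether the 3 libraries of a group are separate cultures or which hairpins they carry, so the p-values measure the spread between these libraries, which may be technical. IGF2BP3 is an RNA-binding protein that reads m6A-marked mRNAs, and the comparison asks how mRNA levels differ once it is depleted.

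CDKs are serine/threonine kinases that work only when bound to a partner. CDK4 and CDK6 pair with D-type cyclins in G1 and phosphorylate the retinoblastoma protein, which releases E2F factors. CDK2 pairs with cyclin E at the G1-S transition and with cyclin A in S phase, and CDK1 pairs with cyclins A and B to drive entry into mitosis. CDK7, with cyclin H and MAT1, is the CDK-activating kinase, which phosphorylates the activation loop of the other CDKs and also serves in the transcription factor TFIIH. CDK inhibitors, the kinases WEE1 and PKMYT1 and the CDC25 phosphatases set the activity of these complexes largely at the protein level. CDK1 is made in dividing cells, while CDK7 is a housekeeping subunit.

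Total counts per library lay between 53424071 and 69989087. *IGF2BP3* itself was counted 7416, 7363 and 6532 times in the control libraries, but 777, 792 and 794 times after the knockdown, which left 12.2% of its control level. Markers of columnar epithelium were high in each library (*KRT8*, 2495 to 2642 CPM, that is, counts scaled to library size), and so was *ERBB2*, which OE-19 cells carry amplified. Of the other markers checked, the squamous markers *KRT5*, *KRT14* and *TP63* and the endothelial markers *PECAM1* and *VWF* were under 0.5 CPM in each library, and the T cell marker *CD3E* and *COL1A2* were at 0. Of 3 leukocyte markers, *CD68* made nearly all of the summed level, 32.8 to 37.5 CPM in control and 48.7 to 54.1 CPM in IGF2BP3 KD libraries. Of 4 fibroblast markers, *COL1A1* did so, and their sum was 20.9 to 24.0 CPM in control and 29.6 to 34.1 CPM in IGF2BP3 KD libraries. Both sums were higher in each IGF2BP3 KD library than in any control library, and their part in the results was not tested. The remaining markers of these lists were near 0, with at most 0.13 CPM for *PTPRC*, 0.18 for *COL3A1* and 0.63 for *DCN* in any library.

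On hg38, with gene models of GENCODE v44, *CDK1* (ENSG00000170312) lies on the plus strand of chromosome 10 from 60778331 to 60794852 and shares no exon base with another gene. *CDK7* (ENSG00000134058), on the plus strand of chromosome 5 from 69234795 to 69277430, also shares none. *CDK6* (ENSG00000105810), on the minus strand of chromosome 7 from 92604921 to 92836573, shares 86 of its 12239 exon bases with *CDK6-AS1*. *CDK2* (ENSG00000123374), on the plus strand of chromosome 12 from 55966781 to 55972789, shares 654 of its 3887 exon bases with *PMEL* and a long non-coding RNA on the opposite strand. *CDK4* (ENSG00000135446), on the minus strand of chromosome 12 from 57747727 to 57756013, shares 1369 of its 3094 exon bases (44.2%) with *TSPAN31* on the opposite strand.

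The 3′ UTRs of the canonical transcripts were searched on the sense strand for 4 words. GATTACT and, shifted by a base, ATTACTA are the first of them, ACACATC is another, and TGGAC is the DNA form of a motif reported for IGF2BP3 binding. All but TGGAC come from earlier results on these libraries, so their presence supports nothing. Of the 5 genes, *CDK4* holds GATTACT, once, at base 120 of its 798-base 3′ UTR, and *CDK1* holds ATTACTA, once, at base 841 of its 877-base 3′ UTR. Each is shown in the 30 bases around it, 5′ to 3′ on the mRNA strand, with the word in capitals.
CDK4 3′ UTR, chr12:57748387-57748416, minus strand: ctttctacagaGATTACTttgctgccttaa
CDK1 3′ UTR, chr10:60794805-60794834, plus strand: atttaactaaaATTACTAgctttgggaatt

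GATTACT is in 7.79% of the 13753 3′ UTRs searched and in 2.78% of the 1873 whose length is within 25% of that of *CDK4*. ATTACTA is in 9.90% of all and in 4.01% of those of about the length of *CDK1*. *CDK6* has the longest 3′ UTR of the 5 by far, 10219 bases, and holds none of them but TGGAC. In the 295 3′ UTRs of like length, GATTACT is in 35.9%, while ATTACTA is in 43.7% and 38.3% hold ACACATC. The motif TGGAC is in the 3′ UTR of *CDK6* 4 times, of *CDK2*, *CDK4* and *CDK7* once each, and not in that of *CDK1*, against 62.2% of all 3′ UTRs with at least 1. Of the 3′ UTRs of about the length of *CDK6*, 99.7% hold it, with a median of 6 copies. At the length of *CDK1* 54.2% hold it, at that of *CDK2* 62.7%, at that of *CDK4* 50.7% and at that of *CDK7* 29.4%.

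RefSeq promoters (GRCh38.p14, 250 bases before to 50 after a start site) were found for 4 of the 5 genes, *CDK1*, *CDK4*, *CDK6* and *CDK7*. Both strands were searched for the CHR word TTTGAA and its variant TTCGAA, which mark genes of G2 and mitosis, for CCAAT, for the E2F words TTTCCCGC and TTTGGCGC, and, chosen after the sequences were seen, for the E-box CACGTG. Of the 2 start sites of *CDK1*, one has 3 copies of TTTGAA and 2 of CCAAT in this window, and the other has 1 of each. The 3 other genes hold neither. The E2F words and TTCGAA are in none of the 4. *CDK4* has 3 E-boxes in its window, and *CDK6* has 1 at one of its 2 start sites and none at the other. *CDK7* has 1, a single copy that lies in the overlapping windows of both its start sites. TTTGAA is in 15.2% of 35116 promoters, CCAAT in 34.6% and CACGTG in 7.26%. A match is a description of letters and not a bound site. The TTTGAA copy nearest to the start of *CDK1*, the nearest CCAAT (read as ATTGG on this strand) and the 3 E-boxes of *CDK4* are shown with the word in capitals, on the strand of the gene.
CDK1 TTTGAA, chr10:60778453-60778482, plus strand: tagcgcggtgagTTTGAAactgctcgcact
CDK1 CCAAT, chr10:60778420-60778449, plus strand: acgggctacccgATTGGtgaatccggggcc
CDK4 E-box, chr12:57752509-57752538, minus strand: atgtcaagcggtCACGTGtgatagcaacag
CDK4 E-box, chr12:57752489-57752518, minus strand: atagcaacagatCACGTGgctgccatcgcc
CDK4 E-box, chr12:57752394-57752423, minus strand: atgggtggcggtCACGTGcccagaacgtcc

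In IGF2BP3 KD cells *CDK4* fell by 30%, *CDK2* by a smaller share and *CDK6*, the other G1 kinase, rose slightly, while *CDK1* and *CDK7* did not pass the test. A gene is called lower or higher when edgeR's quasi-likelihood test gives it an adjusted p, over all 19778 genes, under 0.05. Of the 5 genes, 2 were lower and 1 was higher. Over all genes tested, 10.6% were lower and 9.87% were higher, 20.4% in either direction. The groups did not overlap for 3 of the 5 genes, which held for 35.8% of all tested genes (17.8% lower and 18.0% higher). With only 5 genes, these counts say nothing about the group. Changes are given as log2 fold changes (log2FC) of IGF2BP3 KD over control cells, with their standard error (SE). In bulk RNA, fewer cells in a phase of the cycle and less RNA per cell cannot be told apart.

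*CDK4*, a G1 kinase that pairs with D-type cyclins, had the largest change of the 5. It was counted 5540, 5518 and 4717 times in control libraries 1, 2 and 3, but 2924, 3585 and 3559 times in IGF2BP3 KD libraries 1, 2 and 3. Scaled to library size, with TMM factors, this was 80.9, 79.2 and 80.5 CPM in control cells and 54.2, 57.7 and 56.5 CPM in IGF2BP3 KD cells. The 3 control libraries lay close together, and all 3 IGF2BP3 KD libraries were far below them. The log2FC was -0.51 (SE 0.04, 95% interval -0.61 to -0.42, adjusted p = 1.2e-05), which ranked 235 by p among the 19778 genes. *CDK4* was the only one of the 5 lower at an adjusted p under 0.01, as were 6.64% of all tested genes. With each library left out in turn, *CDK4* was called lower in 6 of 6 fits, with log2FC between -0.54 and -0.49.

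Part of the exon bases behind the call on *CDK4* lie where 2 genes overlap on opposite strands. Of the 1865 bases of its canonical transcript, 1078 lie in exons of *TSPAN31*, a tetraspanin gene, and these hold the whole 3′ UTR and the GATTACT site shown above. The library kit marks strand, but whether strand was used in counting is not given in the sources used here. If it was not, reads of the 2 genes from these bases cannot be told apart. *TSPAN31* was counted 1626, 1571 and 1427 times in the control libraries, against 1529, 1632 and 1765 times after the knockdown, and it was higher in IGF2BP3 KD cells (log2FC 0.23, SE 0.06, adjusted p = 0.025). The overlapping gene thus moved in the direction opposite to *CDK4*. Added together, both genes made 104 ± 1.74 CPM over the control libraries but 83.7 ± 1.03 CPM over the IGF2BP3 KD libraries (SD, n = 3 each).

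*CDK6*, the other partner of D-type cyclins, was the CDK with the most counts. It had 278, 276 and 266 CPM in the control libraries and 293, 304 and 286 CPM in the IGF2BP3 KD libraries. Each IGF2BP3 KD library was above each control library, but the nearest values of the groups were 278 and 286 CPM. The log2FC was 0.10 (SE 0.03, 95% interval 0.04 to 0.17, adjusted p = 0.037), a rise of 7.51%. This call rested on single libraries: it was lost without control replicate 2 (adjusted p = 0.082), control replicate 3 (0.18), IGF2BP3 KD replicate 1 (0.10) or IGF2BP3 KD replicate 2 (0.17), and with no filter on low counts (0.14). The direction was the same in each of these fits, with log2FC between 0.08 and 0.11.

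*CDK2*, the kinase of the G1-S transition and S phase, had 50.6, 51.1 and 52.1 CPM in the control libraries and 42.5, 46.7 and 44.8 CPM in the IGF2BP3 KD libraries. The groups did not overlap. The log2FC was -0.20 (SE 0.05, 95% interval -0.31 to -0.08, adjusted p = 0.019), a decrease of 12.9%. The call was lost without control replicate 3 (adjusted p = 0.063), IGF2BP3 KD replicate 1 (0.081) or IGF2BP3 KD replicate 3 (0.052), with log2FC between -0.23 and -0.17 over the 6 fits. The genes it overlaps had few counts: *PMEL* had 128 to 256 counts per library and the long non-coding RNA 62 to 129, against 2294 to 3561 for *CDK2*. Both moved in the direction of *CDK2* but were not called by edgeR. The log2FC was -0.55 for *PMEL* (adjusted p = 0.065) and -0.35 for the long non-coding RNA (adjusted p = 0.33).

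*CDK1*, the mitotic kinase, had 155, 133 and 140 CPM in the control libraries and 133, 140 and 128 CPM in the IGF2BP3 KD libraries. The groups overlapped, and the highest value, that of control replicate 1, stood above the rest. The log2FC was -0.10 (SE 0.05, adjusted p = 0.27), with a 95% interval from -0.22 to 0.02. It was -0.03 without control replicate 1 and -0.14 without control replicate 2, the ends of the range over the 6 fits that each left out a library. A decrease of more than 13.9% or a rise of more than 1.67% lies outside this interval, and values between them cannot be told apart.

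*CDK7*, the CDK-activating kinase, had the fewest counts, 522 to 719 per library. It had 9.50, 10.3 and 9.85 CPM in the control libraries and 11.02, 8.41 and 10.7 CPM in the IGF2BP3 KD libraries, where replicate 2 was the lowest of all 6 libraries and replicate 1 the highest. The log2FC was 0.02 (SE 0.12, adjusted p = 0.93). Its 95% interval, -0.23 to 0.28, is the widest of the 5, and changes of up to 15% down or 21.5% up lie within it. The estimated biological coefficient of variation, the spread between replicates beyond counting noise, was 0.12 for *CDK7* and 0.04 to 0.06 for the other 4 genes.

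**Figure D1:**
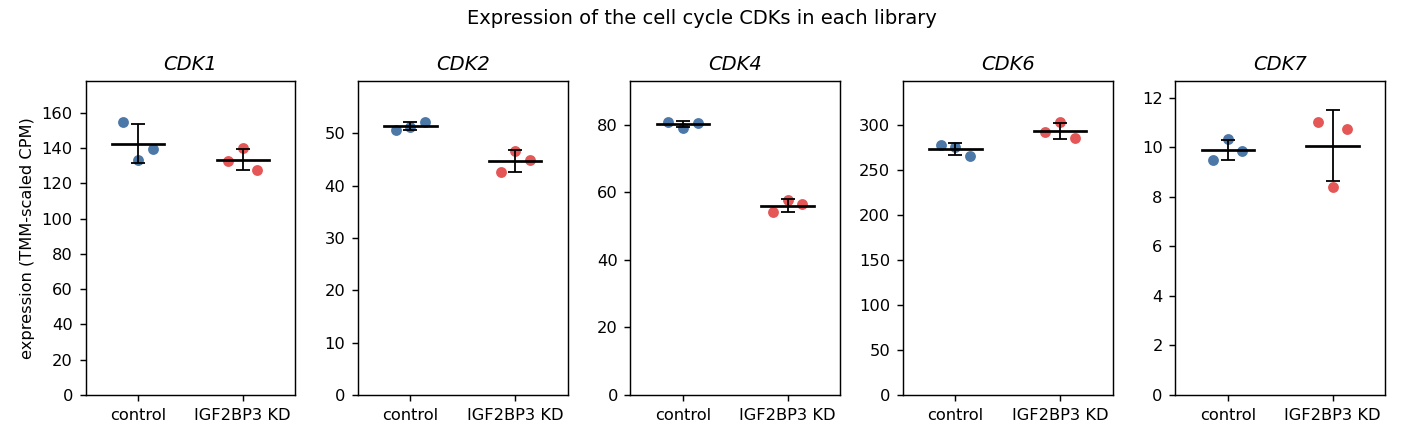
Expression of the 5 cell cycle CDKs in TMM-scaled CPM (y axis from 0, a scale of its own in each panel), with a point for each control (blue) and IGF2BP3 KD (red) library, and the mean with SD over 3 libraries in black. *CDK4* fell from a mean of 80.2 to 56.1 CPM with no overlap, *CDK2* and *CDK6* shifted by less without overlap, and the groups overlap for *CDK1* and *CDK7*.

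Levels can be compared between genes only per length, so counts were divided by the merged exon length and by the scaled library size (RPKM). In control cells *CDK1* was highest at 36.5 ± 2.82 RPKM (SD, n = 3), followed by *CDK4* at 25.9 ± 0.286, *CDK6* at 22.4 ± 0.531, *CDK2* at 13.2 ± 0.198 and *CDK7* at 4.09 ± 0.170 RPKM. No neighbours in this order overlapped in their 3 control libraries. In IGF2BP3 KD cells *CDK6* (24.0 ± 0.731 RPKM) stood above *CDK4* (18.1 ± 0.584 RPKM), and the others kept their places. *CDK6* thus has the most counts but not the highest level, since its exons span 12239 bases.

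The place of *CDK4* in this order depends on the length used. Per kilobase of canonical transcript, *CDK4* had 43.0 RPKM in control cells and 30.1 in IGF2BP3 KD cells, above *CDK6* at 23.5 and 25.2 RPKM in both groups. Per kilobase of exon that no other gene shares, *CDK4* had 46.5 RPKM in control cells, above *CDK1* at 36.5, with no overlap. It had 32.5 RPKM in IGF2BP3 KD cells, where its libraries overlapped those of *CDK1* at 34.1. Here all counts of a gene were divided by the shorter length, so the value is too high if reads from shared exons were counted. The order of *CDK4* and *CDK1* thus cannot be told on this length. Per kilobase of canonical transcript, the control libraries of *CDK2* (22.6 to 23.3 RPKM) overlapped those of *CDK6* (22.8 to 23.9 RPKM), so their order cannot be told there. *CDK7* was the lowest under each length.

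**Figure D2:**
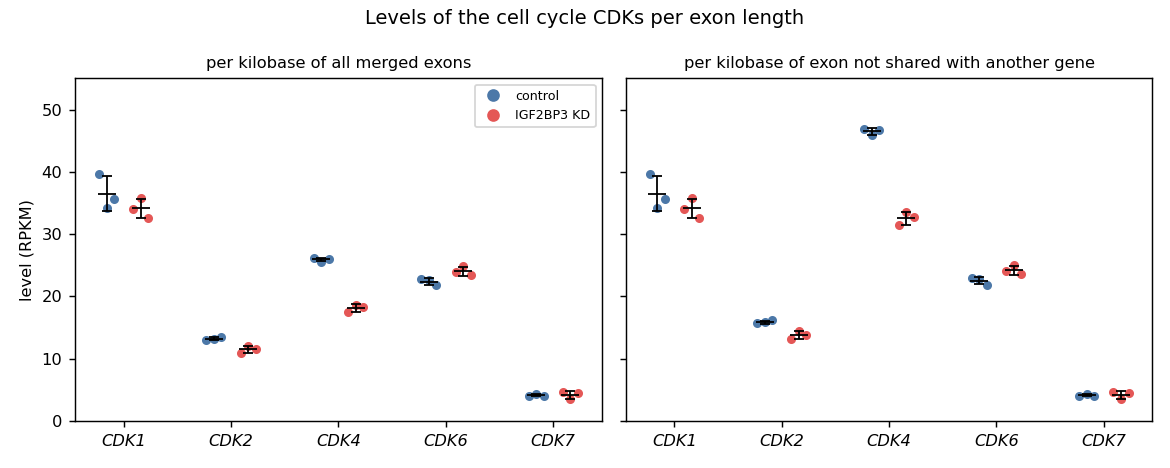
Levels of the 5 CDKs in RPKM (y axis from 0), per kilobase of all merged exons (left) and of exon not shared with another gene (right), with a point per library in control (blue) and IGF2BP3 KD (red) cells and the mean with SD over 3 libraries in black. *CDK4* in control cells moves from 25.9 to 46.5 RPKM between the panels, while *CDK1* and *CDK7* stay where they are. Both panels use all counts of a gene, so only the length differs between them.

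As shares of the summed RPKM of the 5 genes, *CDK4* took 24.8%, 25.7% and 25.8% in the control libraries and then 19.3%, 19.7% and 20.2% after the knockdown. *CDK6* took 21.6%, 22.6% and 21.5%, and then 26.3%, 26.2% and 25.9%. The share of *CDK4* was lower and that of *CDK6* higher after the knockdown, both without overlap, and no test was made of these shares. They rest on merged exon length, and their size and order depend on that choice. Per kilobase of canonical transcript, *CDK4* stayed above *CDK6* in control cells (43.0 against 23.5 RPKM) and in IGF2BP3 KD cells (30.1 against 25.2 RPKM). The sum itself averaged 102 ± 3.03 RPKM over the control libraries and 92.0 ± 2.43 RPKM over the IGF2BP3 KD libraries (SD, n = 3 each).

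A ratio between 2 genes within a library needs no scaling. The 10 pairs of the 5 genes were compared with two-sided exact permutation tests, in which 3 libraries against 3 cannot give a p below 0.1. The log2 ratio of *CDK4* to *CDK6* counts was -1.78, -1.80 and -1.72 in the control libraries but -2.43, -2.40 and -2.34 after the knockdown. The means thus differed by -0.62 (exact p = 0.1, Benjamini-Hochberg adjusted p = 0.17 over 10 pairs), and the 9 differences between single libraries lay between -0.71 and -0.54. For *CDK4* and *CDK2*, the log2 ratio of *CDK2* to *CDK4* was higher by 0.32, with single-library differences from 0.28 to 0.37. For *CDK2* and *CDK6*, the log2 ratio of *CDK2* to *CDK6* differed by -0.30, with single-library differences from -0.43 to -0.21. In 6 of the 10 pairs the groups did not overlap, namely the 4 pairs with *CDK4* and the pairs of *CDK1* and *CDK2* with *CDK6*. Each had the same exact p of 0.1 and adjusted p of 0.17, so none passed a threshold of 0.05. Pairs that share a gene are not separate results, and the 4 with *CDK4* all hold its decrease. The share among all pairs of genes was not computed, while for single genes 35.8% of those tested did not overlap. The other 4 pairs, *CDK1* with *CDK2* and the remaining 3 with *CDK7*, overlapped, with exact p from 0.3 to 1.

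**Figure D3:**
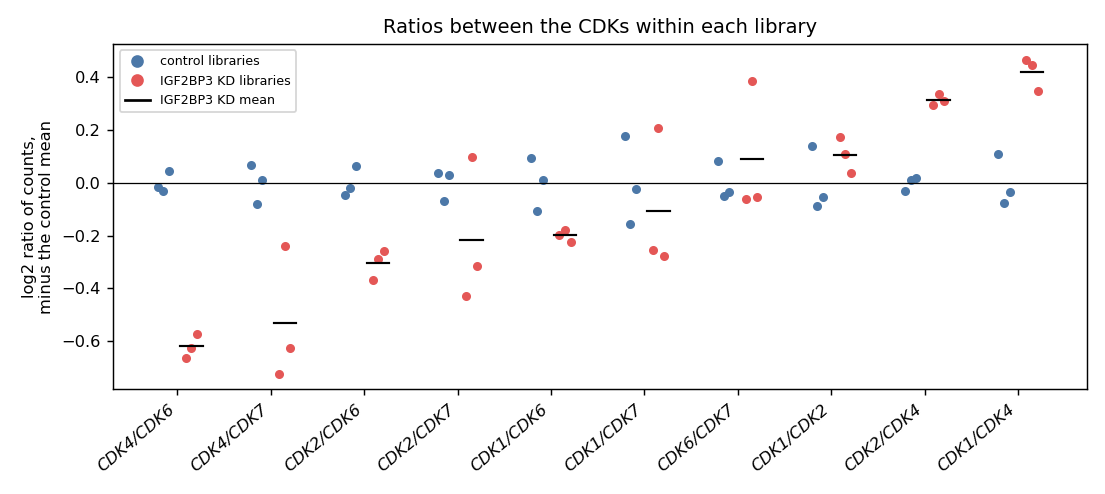
Log2 ratio of the counts of 2 CDKs in each library, minus the mean of the control libraries (y axis), for the 10 pairs, with control libraries in blue, IGF2BP3 KD libraries in red and their mean as a line. The *CDK4*/*CDK6* ratio is lowest relative to control at -0.62, and among the IGF2BP3 KD libraries the pairs with *CDK7* scatter most.

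Of 38 genes that act with or on these kinases, chosen by textbook role, 9 were lower in IGF2BP3 KD cells and 2 were higher. Their median log2FC was -0.08, against 0.01 over all tested genes. The lower genes were the cyclins *CCNE1*, *CCNE2*, *CCNB1* and *CCND1*, the regulators of CDK phosphorylation *WEE1*, *CDC25A* and *CDC25B*, the inhibitor *CDKN2B* and the chaperone *HSP90AB1*. The higher genes were *CCND3* and *HSP90AA1*. The lower genes made 23.7% of this list, where 10.6% of all tested genes were lower, and several of them were already known to be lower when the list was made. The higher genes made 5.26% of it, where 9.87% of all tested genes were higher.

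Among the partners of *CDK2*, both E-type cyclins fell, and by more than the kinase itself. *CCNE2* was lower by 0.93 on the log2 scale and *CCNE1* by 0.63 (SE 0.06 for both). Summed per length, the E-type cyclins went from 21.8, 20.7 and 21.5 RPKM in the control libraries to 12.8, 12.9 and 12.1 RPKM in the IGF2BP3 KD libraries. Their ratio to *CDK2* was thus 1.62 ± 0.0523 in the controls and 1.10 ± 0.0682 after the knockdown (SD, n = 3 each). *CCNE2* shares 37.1% of its exon bases with other genes, so its counts are uncertain, and how many of them this touches was not measured. Among the genes named below, *PKMYT1* (31.9%), *CCNH* (21.2%), *CDKN2C* (20.4%) and *RBL2* (16.4%) also share exon bases with other genes. *CCNA2*, the cyclin that CDK2 and CDK1 share, had a log2FC of 0.02 (SE 0.03, adjusted p = 0.77).

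The D-type cyclins, partners of CDK4 and CDK6, did not move together. *CCND1*, the one with the most counts, averaged 385 ± 8.62 CPM over the control libraries and 344 ± 7.50 CPM over the IGF2BP3 KD libraries (SD, n = 3 each), a log2FC of -0.16 (SE 0.03, adjusted p = 0.0019). *CCND3* was higher, with a log2FC of 0.13 (SE 0.04, adjusted p = 0.043), but among the 6 fits that each left out a library this call remained only without IGF2BP3 KD replicate 1, and the other 5 gave an adjusted p from 0.089 to 0.18. It was also lost with no filter on low counts (0.15). *CCND2* had a log2FC of -0.04 (SE 0.11). The sum of the 3 was 105 ± 1.62 RPKM in control cells and 98.7 ± 1.04 RPKM in IGF2BP3 KD cells. Relative to the sum of *CDK4* and *CDK6*, which was 48.3 ± 0.567 and 42.2 ± 1.14 RPKM, the D-type cyclins made 2.18 ± 0.0249 and 2.34 ± 0.0385 (SD, n = 3).

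For *CDK1*, the B-type cyclin *CCNB1* was lower, with 50.8 ± 1.02 CPM over the control libraries and 41.2 ± 2.51 CPM over the IGF2BP3 KD libraries (SD, n = 3 each, log2FC -0.30, adjusted p = 0.0029), and *CCNB2* had a log2FC of -0.09 (adjusted p = 0.43). The CKS subunits, small proteins that bind CDKs next to the cyclin, were not called, with a log2FC of -0.09 for *CKS1B* and -0.04 for *CKS2*. The A- and B-type cyclins summed to 3.07 ± 0.168 times the RPKM of *CDK1* in control cells and 3.17 ± 0.127 times in IGF2BP3 KD cells (SD, n = 3 each), and the libraries overlapped.

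For *CDK7*, none of the 9 genes of the CDK-activating kinase and TFIIH was called by edgeR with all libraries and the stated filter, with log2FC from -0.46 to 0.10. Over all tested genes 20.4% were called in either direction, and a list of 9 genes is too short to tell its share from that. At an unadjusted p under 0.05, *CCNH* and *ERCC3* were lower. *CCNH*, its cyclin, was counted 902, 875 and 713 times in the control libraries, against 571, 671 and 670 times after the knockdown, a log2FC of -0.24 (SE 0.08, adjusted p = 0.062). *MNAT1*, which encodes the assembly factor MAT1, had a log2FC of 0.01 (SE 0.09, adjusted p = 0.96). DESeq2 called 1 of the 9, *ERCC3* (adjusted p = 0.038), as did edgeR with at least 10 counts in every library (0.047) and without IGF2BP3 KD replicate 1 (0.0499). *GTF2H3* was called lower without IGF2BP3 KD replicate 2 (adjusted p = 0.0084). The largest value, -0.46 for *GTF2H4*, had an SE of 0.40. It was -0.98 without IGF2BP3 KD replicate 2 and -0.05 without IGF2BP3 KD replicate 3, and 79.7% of its exon bases are shared with another gene.

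Among the kinases and phosphatases that set the inhibitory phosphorylation of CDK1 and CDK2, members with opposite roles fell. *WEE1*, an inhibitory kinase, was counted 6214, 6437 and 5064 times in the control libraries, but 2681, 2990 and 3309 times after the knockdown, a log2FC of -0.84 (SE 0.05, adjusted p = 7.7e-07). *CDC25A* and *CDC25B*, phosphatases that undo this inhibition, had log2FC of -0.57 and -0.24. *CDC25C* had 0.15 (adjusted p = 0.27). *PKMYT1*, the other inhibitory kinase, had -0.20 (adjusted p = 0.077), and *CDKN3*, a phosphatase of the CDK activation loop, had 0.19 (adjusted p = 0.083). DESeq2 called *PKMYT1* lower (adjusted p = 0.017) and *CDKN3* higher (adjusted p = 0.050), and edgeR with the replicate number as a block called *CDKN3* (adjusted p = 0.037). Of the other edgeR fits, those with at least 10 counts in every library (0.039) and without control replicate 1 (0.010) called *PKMYT1*, and that without IGF2BP3 KD replicate 2 (0.041) called *CDKN3*.

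Of the 7 CDK inhibitors, *CDKN2B*, which encodes the CDK4 and CDK6 inhibitor p15, was lower. Neither edgeR nor DESeq2 called any of them higher, and at an unadjusted p under 0.05 *CDKN1B* and *CDKN2C* were higher. *CDKN2B* was counted 1613, 1858 and 1394 times in the control libraries, but 897, 1065 and 1219 times after the knockdown, a log2FC of -0.48 (SE 0.08, adjusted p = 0.0015). The other 6 had log2FC from -0.04 to 0.16, with *CDKN1A* (p21) at 0.08 and *CDKN1B* (p27) at 0.13. The INK4 inhibitors, which bind CDK4 and CDK6, summed to 39.3, 44.1 and 40.9 RPKM in the control libraries and 39.2, 41.0 and 41.2 RPKM in the IGF2BP3 KD libraries, which overlap. Relative to the sum of *CDK4* and *CDK6* they thus made 0.859 ± 0.0560 in the controls and 0.960 ± 0.0259 after the knockdown (SD, n = 3 each), and here the libraries did not overlap. The exact permutation p was 0.1, the lowest that 3 against 3 libraries can give, and the ratio rests on merged exon length. *CDKN1A*, *CDKN1B* and *CDKN1C* together made 61.3 ± 1.5 RPKM in control and 65.1 ± 1.6 RPKM in IGF2BP3 KD cells (exact permutation p = 0.1). The pocket proteins, substrates of these kinases, were not called by edgeR, with 0.02 for *RB1* and -0.12 for *RBL1* and *RBL2*. At an unadjusted p under 0.05, *RBL2* was lower, and it was called by DESeq2 (adjusted p = 0.024), by edgeR with at least 10 counts in every library (0.039) and without IGF2BP3 KD replicate 3 (0.039).

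The HSP90 chaperones and their co-chaperone CDC37 fold CDK4 and CDK6. *HSP90AB1* was lower by 0.12 on the log2 scale (SE 0.02) and *HSP90AA1* was higher by 0.17 (SE 0.03), while *CDC37* had -0.06 (adjusted p = 0.42). The changes of these called genes were small.

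Of the 16 other genes named CDK, 15 were tested, 1 was lower and 0 were higher, with a median log2FC of -0.01. The lower share of this list is thus 6.67%, while over the whole set of 19778 genes it was 10.6%. The share called higher over that set was 9.87%. A list of 15 genes is too short to tell its shares from those. The lower gene was *CDK9*, the kinase of transcription elongation, with a log2FC of -0.16 (SE 0.05, adjusted p = 0.037 from edgeR). Among the 6 fits without a library this call remained only without control replicate 1, and the other 5 gave an adjusted p from 0.069 to 0.13. It was also lost with the replicate number as a block (adjusted p = 0.053) and with library totals only (0.061). At an unadjusted p under 0.05, *CDK10* (-0.20) and *CDK11B* (-0.11) were also lower. *CDK13* (0.13) and *CDK14* (0.99) were higher at that threshold, the latter with 19 to 61 counts per library. In 1 of the 6 edgeR fits without a library, *CDK11A* was called lower (adjusted p = 0.028). DESeq2 did not call *CDK13* and gave no adjusted p for *CDK14*. *CDK12* had a log2 fold change near 0 (0.00, SE 0.04). *CDK15* had at most 8 counts in any library and was not tested. *CDK11A* and *CDK11B* are near-identical copies, and *CDK3* shares 91.4% of its exon bases with another gene, so their counts are uncertain. The lowest log2FC of the 15 was -0.20, for *CDK10* (adjusted p = 0.057), which DESeq2 called lower (adjusted p = 0.032), against -0.51 for *CDK4*.

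**Figure D4:**
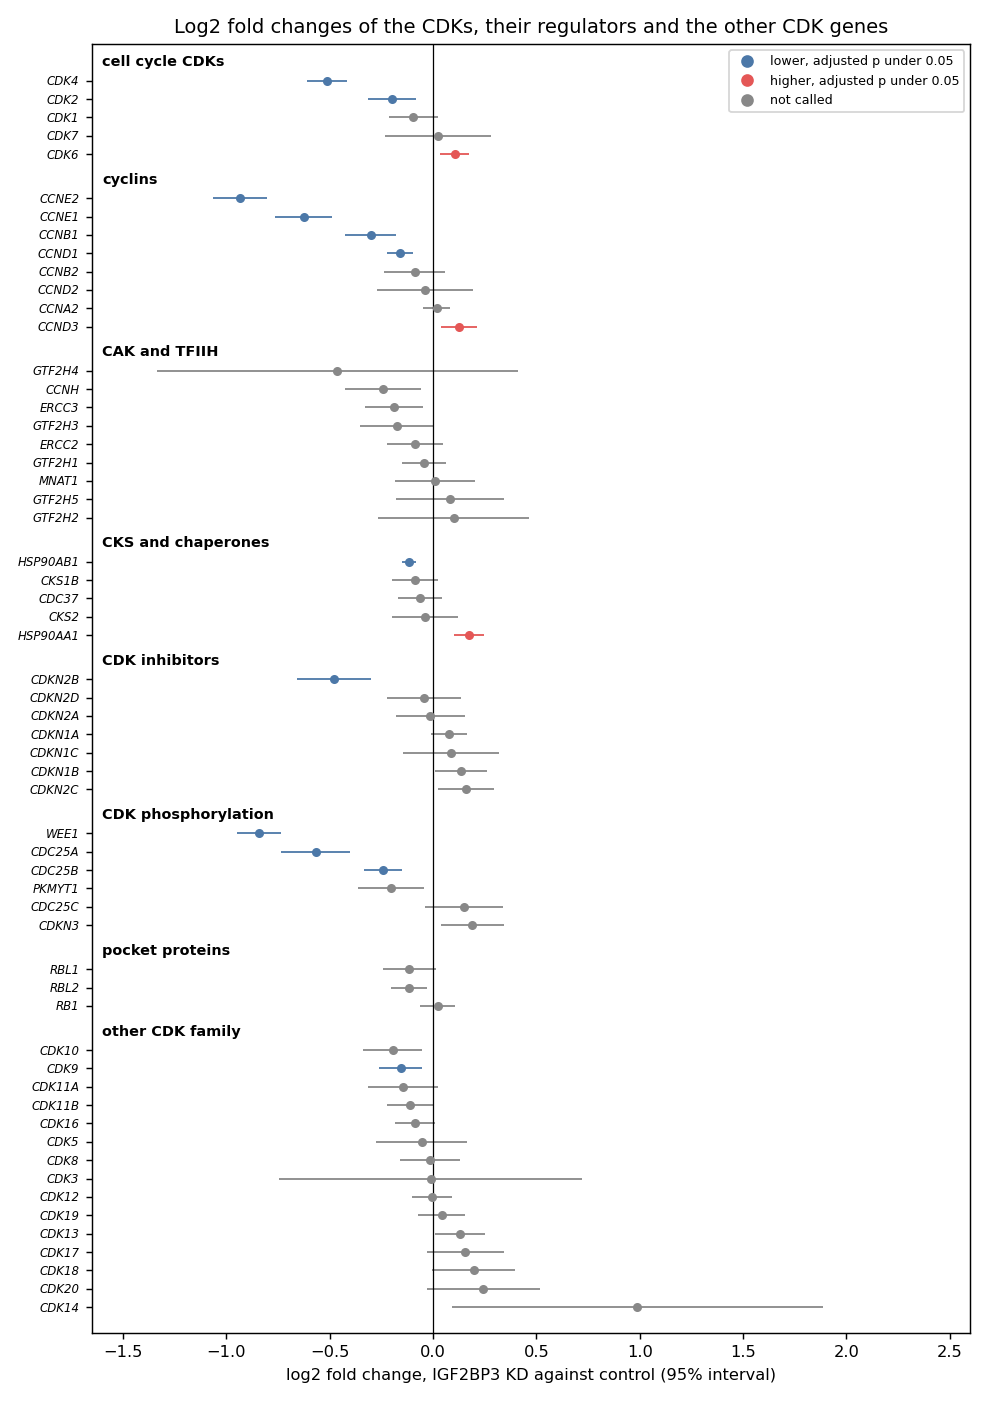
Log2 fold changes of IGF2BP3 KD against control cells (x axis) with 95% intervals for the 5 cell cycle CDKs, 38 regulators by role and 15 other CDK genes, coloured by the call at an adjusted p under 0.05 from edgeR's quasi-likelihood test. *CDK4* at -0.51 is the lowest of the CDK genes shown, and *CCNE2*, *WEE1*, *CCNE1* and *CDC25A* lie below it.

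The genes most like each called CDK were found among 9857 genes that averaged 10 CPM or more, by the root mean square difference of their log2 CPM over the 6 libraries after centring on the control mean. For *CDK4* these were *RPL7L1* (difference 0.03), *ELP3* (0.03) and *MCM7* (0.03), with log2FC of -0.53, -0.50 and -0.49. For *CDK2* they were *CEP85*, *SCYL3* and *TTBK2*, with log2FC of -0.20, -0.20 and -0.21. For *CDK6* they included *HOOK3* and *NDUFB4*, with log2FC of 0.10 and 0.12, and neither was called (adjusted p = 0.18 and 0.14). The profiles share the same 6 libraries, so a small difference describes likeness in these libraries only. The shift after the knockdown is part of the difference, so near-equal log2FC values follow from how the genes were found.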

How the data were processed

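RNA-seq of 3 control and 3 IGF2BP3 KD libraries was analysed. The deposited values are raw read counts per gene, which the authors obtained with featureCounts after HISAT2 alignment of 150-base paired-end reads to hg38. The tool fastp is also named in the submitters' processing notes. Tool versions, annotation release and strand setting are not given in the sources used here.

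Of repeated identifiers, the first entry was kept (132 entries left out). The quasi-likelihood test of edgeR 4.0.16 (R 4.3.3) was the main test, although the study used DESeq2. It used TMM scaling, filterByExpr (minimum count 10, minimum total 15), glmQLFit and glmQLFTest without a block, Benjamini-Hochberg adjustment over 19778 genes and a threshold of 0.05. Depth was 53424071 to 69989087 counts. The fit was tested on simulated data. Alternatives were DESeq2 1.42.0, RLE scaling, library totals only, other low-count filters, the replicate number as a block, a threshold of 0.01 and each library left out in turn. Member and regulator genes, the rule for named genes (the 5 CDKs, the regulators and other CDK genes by role, and 3 nearest profiles per called CDK, of which 1 is not reported here) and the words searched were chosen with earlier results of these data known. Gene models are GENCODE v44. Words were searched in 3′ UTRs of at least 50 bases in tested coding genes, and sequences shown were checked against hg38. Plots and other steps used Python 3.11.15, pandas 2.3.3, scipy 1.17.1 and matplotlib 3.10.9. Replicate numbers did not pair the libraries (the closing section gives the check).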

Additional observations from a re-analysis of the deposited data

How the results depend on the processing

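*CDK4* was lower and *IGF2BP3* was lower in each of the 12 alternative fits, and *CDK1* and *CDK7* were called in none of them. With no filter on low counts, *CDK6* had a log2 fold change of 0.10 and lost its call, so 0 CDKs and 1 regulator were higher. At an adjusted p under 0.01, 1314 genes were lower and 1098 higher, with 1 CDK lower, 0 CDKs higher and 1 regulator higher. With each library left out in turn, 1641 to 1970 genes were lower and 1414 to 1741 higher, 1 to 2 CDKs were lower and 0 to 1 higher, and 9 to 10 regulators were lower and 1 to 2 higher. Log2 fold changes then lay between -0.14 and -0.03 for *CDK1*, between -0.23 and -0.17 for *CDK2*, between 0.080 and 0.12 for *CDK6* and between -0.051 and 0.14 for *CDK7*, which was below 0 without control replicate 1 or IGF2BP3 KD replicate 1 or 3. The difference in the log2 ratio of *CDK6* to *CDK7* lay between -0.057 and 0.16, below 0 without IGF2BP3 KD replicate 2. The cause was not tested, and a fit without a library changes both the number of libraries and which ones are used. With DESeq2 the adjusted p was 0.0034 for *CDK2*, 4.1e-23 for *CDK4* and 0.014 for *CDK6*, and 12 regulators were lower and 3 higher.

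Control levels per kilobase of canonical transcript were 75.5 RPKM for *CDK1*, 22.9 for *CDK2*, 43.0 for *CDK4*, 23.5 for *CDK6* and 6.94 for *CDK7*. Per kilobase of unshared exon, with all counts of the gene divided by that length, they were 15.9 RPKM for *CDK2* and 46.5 for *CDK4*. Both lengths were chosen after the data were seen.

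With the replicate number as a block, 2026 genes were lower and 1875 higher, the log2 fold changes were -0.20 for *CDK2*, -0.52 for *CDK4* and 0.10 for *CDK6*, and no call on the 5 CDKs changed. Same-numbered libraries did not deviate together (correlations of -0.04, -0.04 and -0.01 over 14249 genes), so the block is not a pairing. The block gave 9 regulators lower and 3 higher, and ended the call on *CDK9*.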
